A study of Mus musculus with 24 samples.

Results

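The RNA levels of FGF receptors, FGF ligands and 2 genes tied to their signaling were measured in tumors of the BURP lines, mouse bladder cancers that are passaged as grafts. The set was chosen by gene name, with earlier results of these data known, and holds 10 of the 53465 genes counted. It comprises the receptors Fgfr1, Fgfr2, Fgfr3 and Fgfr4, the receptor-like Fgfrl1, the ligands Fgf1, Fgf2 and Fgf7, the FGF carrier protein gene Fgfbp1, and Spry4, which encodes an inhibitor that FGF signaling induces. All 10 symbols matched 1 gene identifier each.

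Fibroblast growth factors (FGFs) are secreted proteins that bind heparan sulfate in the matrix and, with it as a cofactor, pair and activate receptor tyrosine kinases. The receptors signal mainly through the RAS and MAP kinase cascade, which switches on transcription factors of the ETS family and the Sprouty and dual-specificity phosphatase genes that damp the same cascade. In the urothelium, the lining of the bladder, FGFR3 is best known as a gene that is mutated or overexpressed in bladder cancer, while the IIIb splice form of FGFR2 is the epithelial receptor for FGF7, a ligand made by the mesenchyme.

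On GRCm38 in the GENCODE annotation, Fgfr1 lies at chr8:25513654-25575718 (plus strand), Fgfr2 at chr7:130162451-133123350 (minus), Fgfr3 at chr5:33721674-33737068 (plus), Fgfr4 at chr13:55152640-55168759 (plus) and Fgfrl1 at chr5:108692382-108706924 (plus). The ligand genes Fgf2 and Fgf7 lie at chr3:37348346-37410108 (plus) and chr2:126034658-126091185 (plus), Fgfbp1 lies at chr5:43978858-43981779 (minus), and both Fgf1 (38838673-38929472, minus) and Spry4 (38586247-38601415, minus) lie on chromosome 18. Counts are sums over all exons of a gene, so the IIIb and IIIc splice forms of a receptor cannot be told apart here. The model of Fgfr2 spans other loci, and Fgf2 overlaps Nudt6 on the opposite strand. Since the strand setting of the counting is not given in the sources used here, reads of Fgf2 and Nudt6 cannot be separated with certainty.

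The series holds 24 tumors from 8 lines, with 3 tumors of each line. Every line began as a bladder tumor of 1 C57BL/6NTac donor mouse that drank 0.1% BBN, a bladder carcinogen, from 8 weeks of age for up to 36 weeks, and was then carried under the skin of untreated hosts of the same strain and sex. Basal/squamous (Ba/Sq) lines are BURP-12BaSq (male), BURP-17BaSq (male), BURP-18BaSq (male), BURP-21BaSq (female), BURP-24BaSq (female) and BURP-25BaSq (female), while BURP-16SR (male) is stroma-rich and BURP-19NE (male) is neuroendocrine-like. The study's classifier matched 1 of the 3 BURP-16SR tumors to the neuroendocrine-like class and the others to stroma-rich. Here all 3 carry the label of their line. By these labels, stroma-rich and neuroendocrine-like tumors each come from 1 line, so subtype and line cannot be told apart for them. The p-values measure the spread between tumors of lines from 1 donor each.

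Counts per tumor summed to 9295746 to 25370355, with a median of 17693198. One library of BURP-25BaSq (replicate 2) had 61.9% of its counts in a ribosomal RNA gene, which left 3725762 for the others. Another (replicate 3) was nearer to BURP-21BaSq than to the rest of its line in Fgfr1, Fgfr3 and Fgfrl1. In Fgfbp1 it lay between them, and its likeness over all genes is not given here. Its Fgfr1 (33.5 CPM), Fgfr3 (64.3 CPM) and Fgfrl1 (5.57 CPM) also lay within the ranges of BURP-12BaSq, so these genes do not single out BURP-21BaSq. Its label is in doubt only from members of this set, so calls for these members without it are not independent of that doubt. Results that rest on that line are given with and without it. Summed levels of 5 squamous and basal markers (Krt5, Krt14, Krt6a, Trp63 and Dsg3) ran from 7921 to 21010 CPM (counts scaled to library size) in the 18 Ba/Sq tumors and averaged 0.525 CPM in BURP-16SR and 0.862 CPM in BURP-19NE. Uroplakins, the markers of bladder epithelium, were low in most lines. Upk1b, Upk2 and Upk3a were at or under 3 counts in every tumor of BURP-16SR and BURP-19NE, Upk2 and Upk3a also in BURP-12BaSq and BURP-24BaSq. Upk1a averaged 0.624 CPM in BURP-19NE beside 0.256 to 0.971 CPM in the Ba/Sq lines. Summed with Krt20, the uroplakins averaged 13.8 CPM in BURP-16SR (median 16.3 CPM) and 0.726 CPM in BURP-19NE. The Ba/Sq tumors had a mean of 17.5 CPM, a median of 4.09 CPM and a highest value of 205 CPM. Only Upk1a and Krt20 rose above 3 counts in any tumor of BURP-16SR or BURP-19NE, so the sum there is of these genes. General epithelial markers (Epcam, Cdh1, Krt8, Krt18 and Cldn4) summed to a mean of 382 CPM in BURP-16SR and 169 CPM in BURP-19NE. Their mean sum was 915 CPM in the Ba/Sq tumors. Of the neuroendocrine markers in BURP-19NE, Ncam1 averaged 308 CPM, while Syp (0.424 CPM) and Chga (0.0735 CPM) were near the lowest detectable level.

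For 4 members that differed between Ba/Sq and both other subtypes, with Fgfbp1 and Fgfr3 high in Ba/Sq and Fgf2 and Fgf7 low, the 250 bases before the annotated start (RefSeq, GRCm38.p6) are given in the direction of transcription. Capitals mark a GC box (GGGCGG or its complement), the only one of 3 searched motifs that was present.
Fgfbp1 (chr5:43981800-43982049, minus strand): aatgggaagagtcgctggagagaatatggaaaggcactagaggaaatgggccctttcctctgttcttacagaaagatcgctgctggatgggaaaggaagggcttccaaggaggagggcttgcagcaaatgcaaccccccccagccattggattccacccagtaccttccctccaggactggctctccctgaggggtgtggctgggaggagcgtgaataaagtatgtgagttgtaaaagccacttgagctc
Fgfr3 (chr5:33721474-33721723, plus strand): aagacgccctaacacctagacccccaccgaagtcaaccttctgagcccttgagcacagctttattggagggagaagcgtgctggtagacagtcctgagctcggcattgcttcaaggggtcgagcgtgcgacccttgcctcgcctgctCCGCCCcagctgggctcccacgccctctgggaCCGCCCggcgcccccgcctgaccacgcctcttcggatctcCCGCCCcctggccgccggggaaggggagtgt
Fgf2 (chr3:37348403-37348652, plus strand): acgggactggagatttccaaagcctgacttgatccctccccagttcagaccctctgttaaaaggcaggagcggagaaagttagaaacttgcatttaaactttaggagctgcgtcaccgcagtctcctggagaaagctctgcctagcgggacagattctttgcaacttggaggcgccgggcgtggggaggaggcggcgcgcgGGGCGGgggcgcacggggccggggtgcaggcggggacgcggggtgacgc
Fgf7 (chr2:126034408-126034657, plus strand): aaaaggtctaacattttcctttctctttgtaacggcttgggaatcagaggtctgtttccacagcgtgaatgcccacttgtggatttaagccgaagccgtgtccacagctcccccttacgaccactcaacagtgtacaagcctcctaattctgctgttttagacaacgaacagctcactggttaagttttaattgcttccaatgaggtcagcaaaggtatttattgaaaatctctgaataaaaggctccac
The Fgfr3 window held 3 GC boxes and the Fgf2 window held 1, while none stood in the windows of Fgfbp1 and Fgf7. Neither a TATA box (TATAAA) nor an AP-1 site (TGANTCA) was found on either strand of these 4 windows. Matches did not overlap each other. Among 32841 windows of the same length over all genes, 32.75% held a GC box, 12.37% a TATA box and 6.75% an AP-1 site. The GC content was 53.6% for Fgfbp1, 66.8% for Fgfr3, 62.4% for Fgf2 and 43.6% for Fgf7, beside a median of 52.4% over all windows.

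Fgfr2 and Fgfr3 were lower in the stroma-rich and neuroendocrine-like tumors than in every Ba/Sq tumor. For Fgfr3 in BURP-19NE the gap was narrow. BURP-16SR and BURP-19NE tumors instead had raised Fgf2, Fgf7 and Spry4, and they lacked Fgfbp1. Against the 18 Ba/Sq tumors, 3 members rose and 3 fell of 9 tested in BURP-19NE, where 24.3% of all genes tested were called (9.33% higher and 15% lower). In BURP-16SR, 5 members rose and 3 fell of 9 tested, where 19.2% of all genes tested were called (10.5% higher and 8.62% lower). Groups did not overlap for 18% of all genes in the BURP-19NE comparison and for 11.4% in that of BURP-16SR. A gene was called at an adjusted p under 0.05 (edgeR's quasi-likelihood test with Benjamini-Hochberg adjustment over all genes tested) and a fold change above 2. The median log2 fold change of the tested members was 0.72 in BURP-19NE and 1.38 in BURP-16SR, where the medians over all genes tested were -0.14 and -0.03. Both comparisons use the same Ba/Sq tumors.

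**Figure D1:**
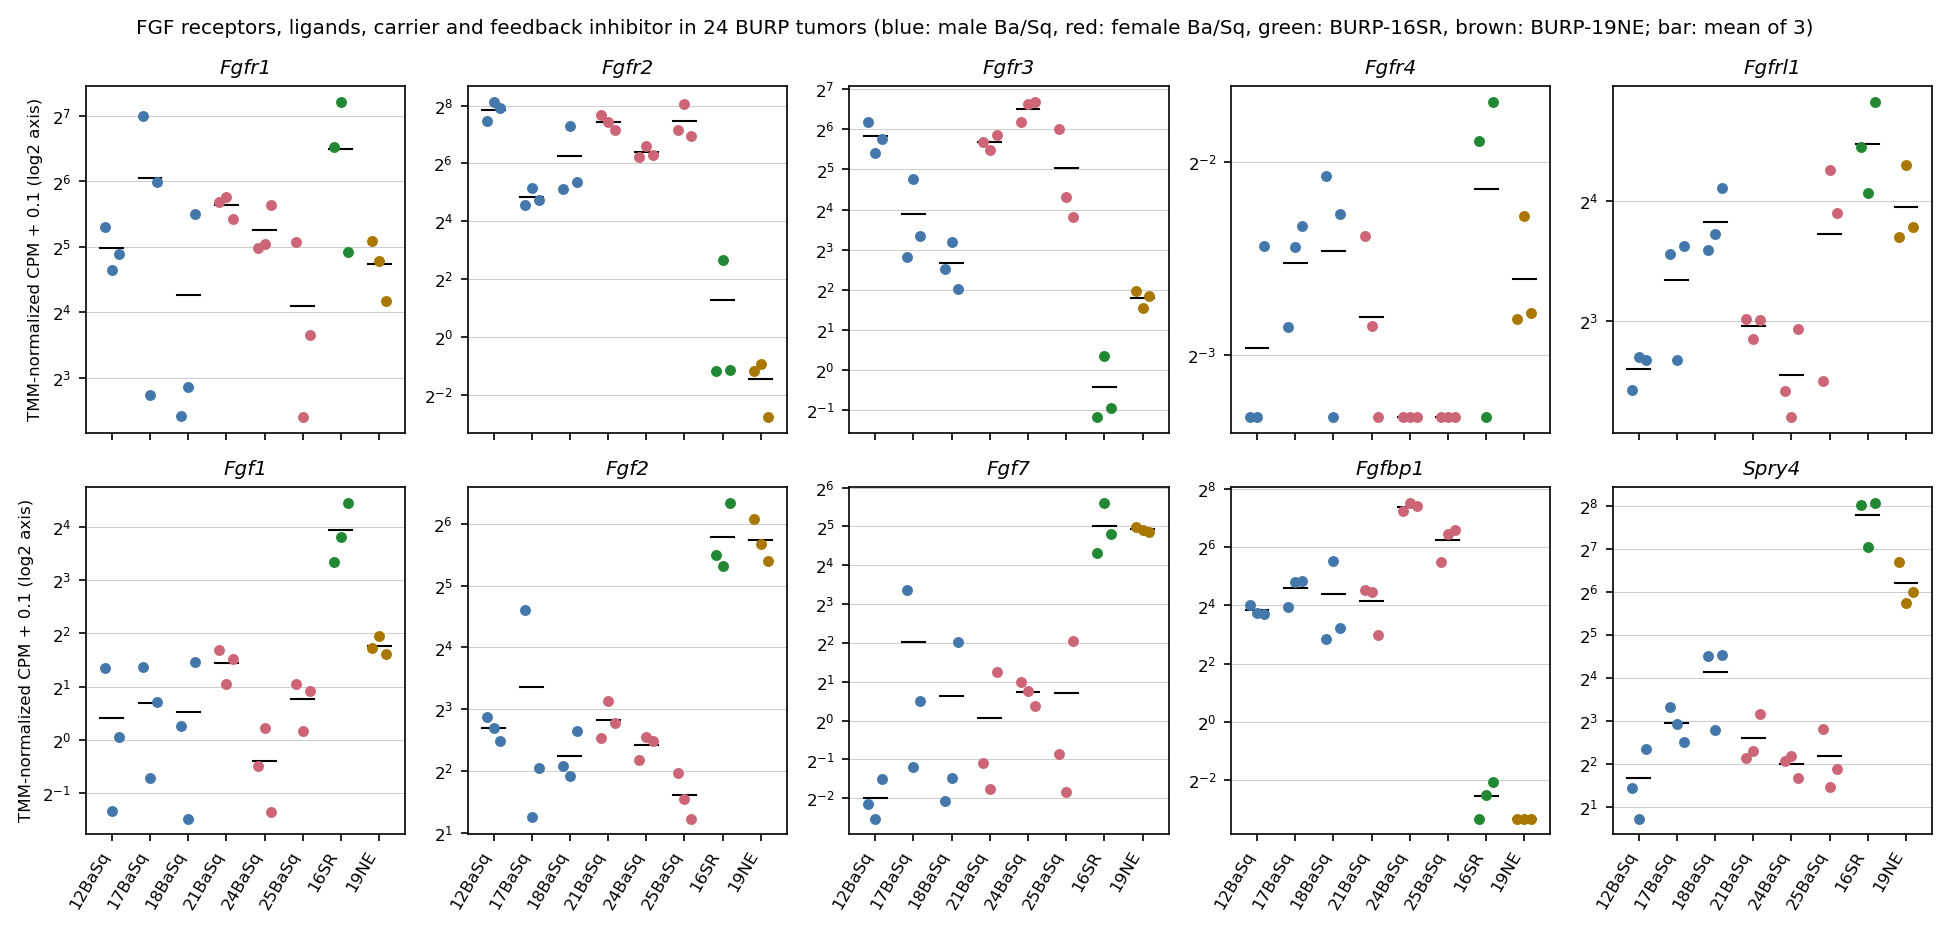
Level of each member in every tumor by line, in CPM plus 0.1 on a log2 axis, with 1 point per tumor, a bar at the mean of 3 and 1 panel per gene. Fgfr2 and Fgfbp1 sit far higher in the 6 Ba/Sq lines than in BURP-16SR and BURP-19NE, while Fgf2, Fgf7 and Spry4 show the opposite order. Fgfr3 is lower in both lines too, but BURP-19NE lies just below BURP-18BaSq.

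Fgfr2 encodes the receptor that, in its epithelial form, binds FGF7 and FGF10. Its level in the Ba/Sq tumors had a lowest value of 23.8 CPM, a median of 133 CPM and a highest value of 281 CPM. The BURP-16SR tumors had 0.339, 6.19 and 0.350 CPM (4, 80 and 5 counts), and the BURP-19NE tumors had 0.337, 0.422 and 0.0454 CPM (8, 8 and 1 counts). All 6 of these tumors lay below every Ba/Sq tumor, and replicate 2 of BURP-16SR was the highest among them. On the log2 scale Fgfr2 fell by 5.71 (SE 1.10, adjusted p = 0.000614) in BURP-16SR and fell by 8.87 (SE 1.15, adjusted p = 4.78e-06) in BURP-19NE against the Ba/Sq tumors. In BURP-16SR 80 of the 89 counts came from replicate 2, without which the difference was -8.45 (adjusted p = 0.000157), so its size is loosely set. The sum of counts in BURP-19NE was 17, so its fold change is loosely set too, with a ratio of 491 and a 95% counting interval of 306 to 842 (exact, counting error only). In whole tumors, fewer cells that express a gene and less RNA per cell cannot be told apart.

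Fgfr3 encodes the receptor most often altered in human bladder cancer. The Ba/Sq tumors had a lowest level of 3.96 CPM, a median of 43.7 CPM and a highest of 103 CPM. The BURP-16SR tumors had 0.339, 1.16 and 0.420 CPM, and the BURP-19NE tumors had 3.79, 2.79 and 3.50 CPM. Neither line overlapped the Ba/Sq tumors, but the highest BURP-19NE tumor lay just below the lowest Ba/Sq tumor, which belongs to BURP-18BaSq. Fgfr3 fell by 5.96 (SE 1.21, adjusted p = 0.00102; -6.72 without replicate 2) in BURP-16SR and by 3.63 (SE 0.99, adjusted p = 0.00767) in BURP-19NE on the log2 scale.

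Fgfr1, the receptor typical of mesenchymal cells, did not follow the same split. It ran from 5.16 to 128 CPM in the Ba/Sq tumors, with a median of 33.2 CPM. The BURP-16SR tumors had 92.4, 148.8 and 30.4 CPM, and the BURP-19NE tumors had 34.1, 27.6 and 17.97 CPM. Both lines overlapped the Ba/Sq tumors, although replicate 2 of BURP-16SR was the highest of all 24 tumors. The log2 difference from Ba/Sq was 1.38 (SE 0.64, adjusted p = 0.117) in BURP-16SR and -0.47 (SE 0.71, adjusted p = 0.641) in BURP-19NE. The BURP-16SR difference passed the test without replicate 1 of BURP-17BaSq, the highest Ba/Sq tumor (1.61, adjusted p = 0.0419), and in 1 fit over all 24 tumors (1.45, adjusted p = 0.0444).

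Fgfr4, a receptor prominent in liver, had at most 3 counts in any tumor, no more than a count of 0 allows, so no level or difference was detectable at this depth. It was not tested in any comparison.

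The share of each receptor in the summed RNA of Fgfr1 to Fgfr4, in CPM per kilobase of transcript, described how the balance differed. In BURP-16SR 96.5% ± 2.20 (SD, n = 3) of this sum was Fgfr1, and in BURP-19NE 85.2% ± 3.79 was. Among the 18 Ba/Sq tumors Fgfr2 had the largest share in 14, Fgfr1 in 2 tumors of BURP-17BaSq, and Fgfr3 in 2 tumors of BURP-24BaSq. In BURP-24BaSq the shares of Fgfr3 (44.3% ± 2.10) and Fgfr2 (40.2% ± 4.68) were close to each other. The sum itself was 73.4 ± 7.12 CPM per kilobase in BURP-12BaSq, the highest line, and 6.14 ± 1.67 in BURP-19NE, the lowest. BURP-16SR had 18.7 ± 12.5 CPM per kilobase, close to BURP-17BaSq (23.2 ± 8.49) and BURP-18BaSq (23.2 ± 14.99). The shares are descriptions and were not tested.

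**Figure D2:**
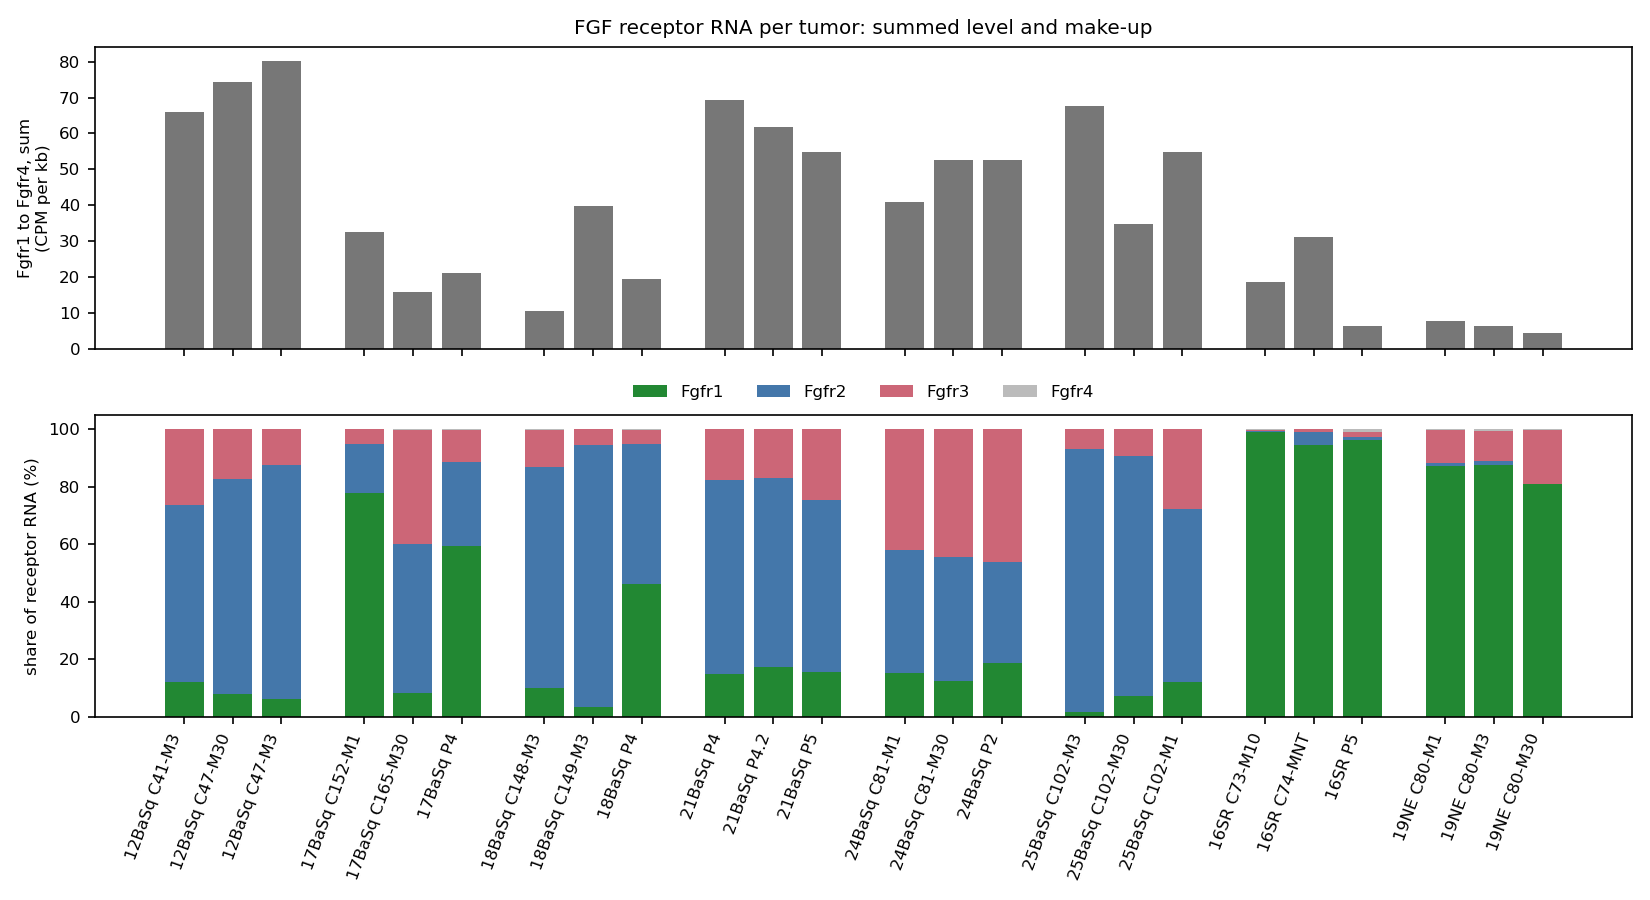
Summed CPM per kilobase of Fgfr1 to Fgfr4 (top) and the share of each in that sum in percent (bottom), with 1 bar per tumor grouped by line. Fgfr1 is the largest part of the bars of BURP-16SR and BURP-19NE, and Fgfr2 that of most Ba/Sq bars. Fgfr3 has its largest share in BURP-24BaSq.

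Fgfrl1 encodes a receptor-like protein that binds FGFs but has no kinase domain. Its level in the Ba/Sq tumors had a lowest value of 4.51 CPM, a median of 7.77 CPM and a highest of 19.0 CPM. BURP-16SR had 21.6, 16.6 and 28.1 CPM, and BURP-19NE had 12.9, 19.5 and 13.7 CPM. Both lines overlapped the Ba/Sq tumors. Fgfrl1 rose by 1.3 (SE 0.34, adjusted p = 0.00827) on the log2 scale in BURP-16SR, a call that was lost without replicate 3 of that line (1.02, adjusted p = 0.102). In BURP-19NE the difference was 0.72 (SE 0.36, adjusted p = 0.126).

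Fgf2, a ligand of the IIIc receptor forms that lacks a classical secretion signal, was higher in both of the other subtypes. The Ba/Sq tumors ran from 2.24 to 24.1 CPM with a median of 5.49 CPM. BURP-16SR had 45.3, 40.1 and 80.9 CPM, and BURP-19NE had 67.6, 50.9 and 42.1 CPM. All 6 tumors lay above every Ba/Sq tumor. Fgf2 rose by 3.24 (SE 0.39, adjusted p = 2.92e-06) in BURP-16SR and by 3.15 (SE 0.39, adjusted p = 2.98e-06) in BURP-19NE on the log2 scale.

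Fgf7, the mesenchymal ligand of the epithelial FGFR2 form, was close to the floor in most Ba/Sq tumors, with a lowest level of 0.0740 CPM, a median of 0.409 CPM and a highest of 10.2 CPM. BURP-16SR had 19.9, 48.5 and 28.1 CPM, and BURP-19NE had 31.7, 30.2 and 28.8 CPM. No tumor of either line overlapped the Ba/Sq tumors. Fgf7 rose by 4.41 (SE 0.83, adjusted p = 0.000503) in BURP-16SR and by 4.26 (SE 0.83, adjusted p = 0.000479) in BURP-19NE on the log2 scale. Without replicate 1 of BURP-17BaSq, the Ba/Sq tumor with the most Fgf7, these differences were 5.02 and 4.85. In both lines Fgf7 stood beside an Fgfr2 level of at most 6.19 CPM.

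Fgf1, a ligand that binds all FGF receptors, rose in BURP-16SR. The Ba/Sq tumors ran from 0.257 to 3.12 CPM with a median of 1.31 CPM, and BURP-16SR had 10.1, 14.0 and 21.8 CPM, all above them. BURP-19NE had 3.20, 3.80 and 2.95 CPM, of which replicate 3 overlapped the Ba/Sq tumors. The log2 difference was 3.42 (SE 0.48, adjusted p = 2.14e-05) in BURP-16SR and 1.16 (SE 0.55, adjusted p = 0.111) in BURP-19NE. The latter passed the test in 1 fit over all 24 tumors (1.26, adjusted p = 0.0364).

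Fgfbp1 encodes a secreted carrier that releases FGFs from heparan sulfate. Ba/Sq tumors had a lowest level of 7.14 CPM, a median of 25.4 CPM and a highest of 183 CPM. BURP-16SR had 0, 1 and 2 counts (0, 0.0774 and 0.140 CPM), and BURP-19NE had 0 counts in all 3 tumors. Neither line came near the lowest Ba/Sq tumor. Against the Ba/Sq mean of 53.5 CPM, the level in BURP-19NE was at least 338-fold lower, taking 3 counts in the library with the highest floor (0.158 CPM) as the limit (adjusted p = 0.000256). In BURP-16SR it was 696-fold lower, with a 95% counting interval of 238 to 3374 (exact, counting error only; adjusted p = 0.000533).

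Spry4, the inhibitor gene, was higher in both lines. Ba/Sq tumors ran from 1.55 to 23.1 CPM with a median of 4.90 CPM. BURP-16SR had 262, 132 and 268 CPM, and BURP-19NE had 103, 53.9 and 64.0 CPM. Both lines lay above every Ba/Sq tumor and did not overlap each other. Spry4 rose by 5.03 (SE 0.46, adjusted p = 4.64e-08) in BURP-16SR and by 3.40 (SE 0.48, adjusted p = 1.51e-05) in BURP-19NE on the log2 scale.

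**Figure D3:**
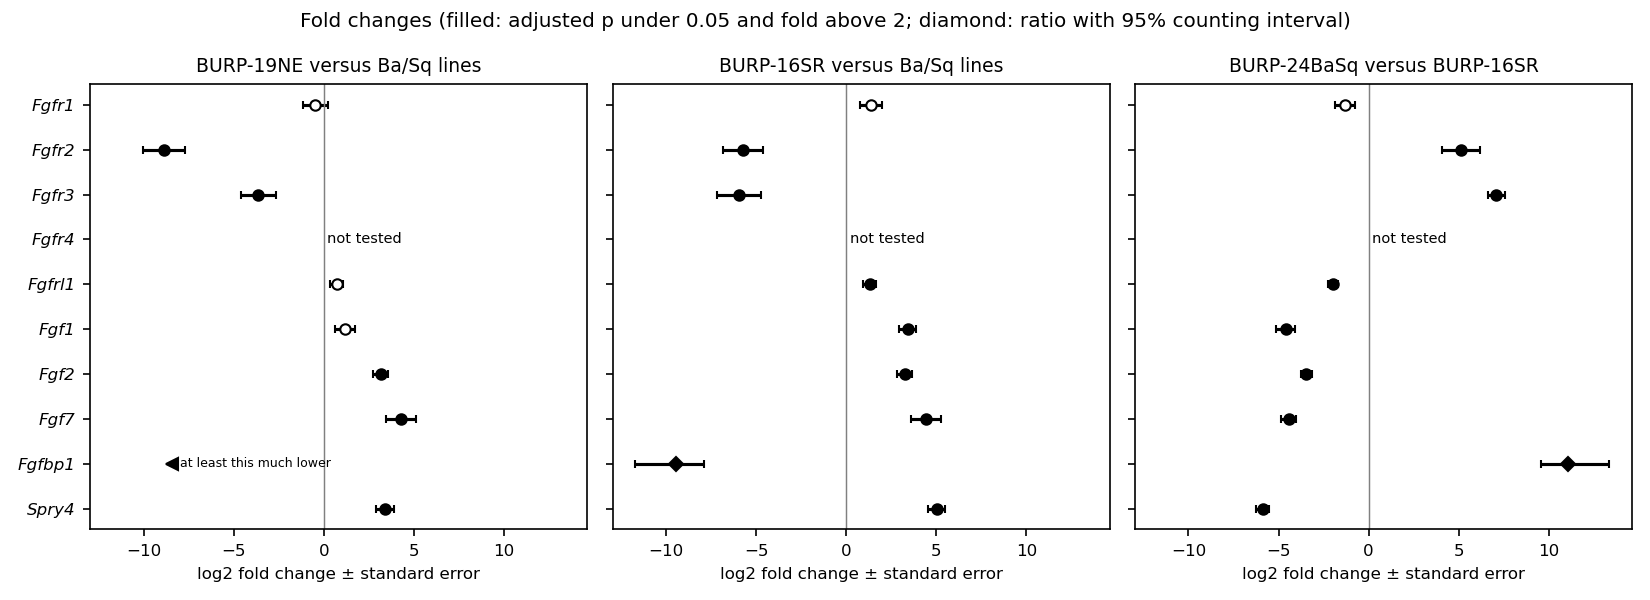
Log2 fold change of each tested member in 3 comparisons, with bars of 1 SE and filled points for called genes. Diamonds with a 95% counting interval stand where Fgfbp1 rests on 3 counts, and an arrowhead marks its bound in BURP-19NE. Fgfr2, Fgfr3 and Fgfbp1 lie left of 0 and Fgf2, Fgf7 and Spry4 right of 0 in both comparisons with the Ba/Sq tumors.

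The level of fibroblast genes ran with that of some members in BURP-17BaSq and BURP-18BaSq, and less so in the other Ba/Sq lines. In BURP-16SR only Fgfr1 kept the order of the fibroblast markers. The summed level of 8 fibroblast markers (Col1a1, Col1a2, Col3a1, Dcn, Lum, Pdgfra, Pdgfrb and Thy1, all detected in every line) was 7553, 20130 and 598 CPM in the BURP-16SR tumors, 1910, 1173 and 1693 CPM in BURP-19NE, and 212 to 9846 CPM in the Ba/Sq tumors with a median of 1115 CPM. The BURP-16SR tumor with the least fibroblast RNA, replicate 3, had the highest Fgf1, Fgf2, Fgfrl1 and Spry4 of that line and the lowest Fgfr1. In that tumor Fgf2 was 80.9 CPM, Fgf7 28.1 CPM and Spry4 268 CPM, each above all 18 Ba/Sq tumors. Replicate 2, with the most fibroblast RNA, had the highest Fgf7 (48.5 CPM), Fgfr2 (6.19 CPM) and Fgfr3 (1.16 CPM) of that line as well as the highest Fgfr1. The 3 tumors of BURP-17BaSq had 9846, 328 and 3042 CPM of fibroblast markers beside 128, 6.55 and 63.4 CPM of Fgfr1 and 10.2, 0.336 and 1.33 CPM of Fgf7. Fgf2 (24.1, 2.27 and 4.04 CPM) and Fgf1 (2.49, 0.504 and 1.53 CPM) followed in that line too. For all 4 of these members, the order of the BURP-17BaSq tumors was that of the fibroblast markers. In BURP-18BaSq, 449, 621 and 5728 CPM of fibroblast markers stood beside 5.22, 7.12 and 45.2 CPM of Fgfr1. Fgf7 was 0.137, 0.257 and 3.96 CPM there, with the lower values at or under the floor. Fgf2 (4.12, 3.69 and 6.15 CPM) and Fgf1 (1.10, 0.257 and 2.67 CPM) were highest in the same BURP-18BaSq tumor, but did not keep the order of the others. In BURP-21BaSq, 1347, 1109 and 2730 CPM of fibroblast markers stood beside 51.5, 54.1 and 43.1 CPM of Fgfr1. Nor did Fgfr1 keep the order of these markers in BURP-12BaSq, BURP-24BaSq and BURP-25BaSq. Fgf7 kept it in BURP-21BaSq and, at 9 counts or fewer, in BURP-25BaSq, but not in BURP-12BaSq and BURP-24BaSq. The part of stroma in the levels of the members was not tested. Skeletal muscle markers, a sign of host tissue, summed to 546 CPM in replicate 1 of BURP-19NE against 3.16 and 5.27 CPM in the others. That tumor had the highest Fgf2 (67.6 CPM), Fgf7 (31.7 CPM), Spry4 (103 CPM), Fgfr1 and Fgfr3 of its line. Its Fgfrl1 was the lowest, and its Fgf1 and Fgfr2 were not the highest. Fgf2, Fgf7 and Spry4 lay above the Ba/Sq range in all 3 tumors. The part of host muscle in these levels was not tested.

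**Figure D4:**
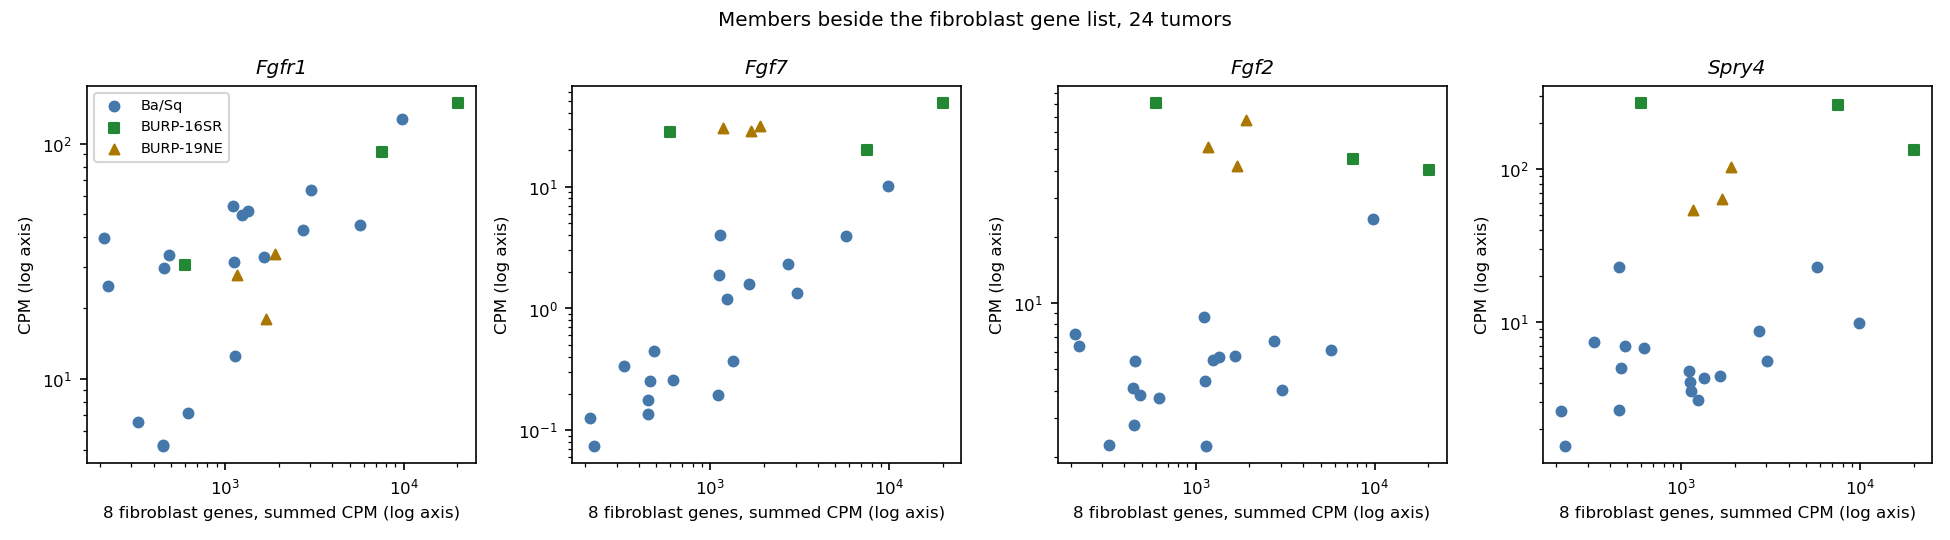
Level of Fgfr1, Fgf7, Fgf2 and Spry4 against the summed level of 8 fibroblast markers in each tumor, both in CPM on log axes with color and marker giving the subtype. Replicate 3 of BURP-16SR stands at 598 CPM of fibroblast markers and 80.9 CPM of Fgf2.

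Other genes of FGF signaling were read from a list of 93 (further ligands, cofactors, heparan sulfate genes, relay proteins, feedback inhibitors and target transcription factors). In BURP-19NE 13 rose and 18 fell of 80 tested, a called share of 38.8% beside 24.3% of all genes, and in BURP-16SR 11 rose and 8 fell of 80 tested, a share of 23.8% beside 19.2%. Of the 22 heparan sulfate genes, 4 rose and 8 fell in BURP-19NE. Sdc1, the main syndecan of epithelium, fell by 3.20 (adjusted p = 1.65e-05) in BURP-19NE and by 2.22 (adjusted p = 0.000563) in BURP-16SR. Hs3st1, a heparan sulfate sulfotransferase gene, fell by 5.34 (adjusted p = 4.46e-05) and the glypican gene Gpc3 by 5.63 (adjusted p = 0.00846, overlapping groups) in BURP-19NE. Sulf2, whose product trims sulfate from heparan sulfate, rose by 2.73 there (adjusted p = 0.0015). L1cam, an adhesion protein that can engage FGF receptors, fell by 4.09 (adjusted p = 5.45e-05) in BURP-16SR, and so did Flrt2, by 2.95 (adjusted p = 0.00583). In BURP-19NE Ncam1, a neural adhesion protein that can do the same, rose by 2.96 (adjusted p = 0.000971), and Fgf14, an intracellular FGF homolog that acts on sodium channels, rose by 5.60 (adjusted p = 0.000112). Fgf12, another homolog, was at 0 in all 3 BURP-19NE tumors and at no more than 1.19 CPM in any Ba/Sq tumor. All values of this paragraph are log2 fold changes against the Ba/Sq tumors.

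The feedback inhibitors and targets did not move as 1 block. Of 13 feedback inhibitors, 5 rose and 0 fell in BURP-16SR (Spry2, Spred2, Spred3, Dusp5 and Il17rd), while 4 rose (Spry1, Spred2, Il17rd and Rasa1) and 1 fell (Dusp4) in BURP-19NE, beside called shares of 19.2% and 24.3% over all genes. Of 11 target transcription factors and other targets, 2 rose (Fosl1 and Ccnd1) and 0 fell in BURP-16SR, while 1 rose (Etv1) and 5 fell (Etv4, Fos, Myc, Ier3 and Phlda1) in BURP-19NE. Spry2 averaged 162 ± 31.4 CPM in BURP-16SR against 31.9 ± 24.4 CPM in Ba/Sq (a log2 difference of 2.41, adjusted p = 0.000454), and 51.2 ± 2.50 CPM in BURP-19NE (0.71, adjusted p = 0.282). Spry1 rose in BURP-19NE (1.20, adjusted p = 0.0269) and differed by -0.47 in BURP-16SR (adjusted p = 0.52). Dusp6, a phosphatase that removes phosphate from ERK and is often read as a measure of its activity, differed by -0.32 (adjusted p = 0.747) in BURP-16SR and -0.06 (adjusted p = 0.955) in BURP-19NE, with overlapping groups. Etv4, an ETS factor downstream of the receptors, fell by 4.05 (adjusted p = 0.000982) in BURP-19NE, from 24.7 ± 17.5 CPM in Ba/Sq to 1.46 ± 0.927 CPM, and differed by 0.66 (adjusted p = 0.419) in BURP-16SR. Its relative Etv5 differed by -0.66 (adjusted p = 0.107) and 0.64 (adjusted p = 0.0684) in the same lines. Fosl1, an AP-1 subunit gene, rose by 2.79 (adjusted p = 7.57e-05) in BURP-16SR.

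Set directly against BURP-19NE, BURP-16SR had more Fgf1 and Spry4 and less Fgfr3. Of 7 members tested, 3 rose and 1 fell, where 23.6% of all genes tested were called (14.8% higher and 8.86% lower), and groups of 3 did not overlap for 51.7% of all genes. Fgf1 was higher by 2.29 (SE 0.31, adjusted p = 0.00316) on the log2 scale. Spry4 was higher by 1.67 (SE 0.35, adjusted p = 0.013) and Fgfr3 lower, at -2.28 (SE 0.51, adjusted p = 0.0156). Fgfr1 was higher by 1.88 (SE 0.58, adjusted p = 0.0451), although replicate 3 of BURP-16SR (30.4 CPM) lay below replicate 1 of BURP-19NE (34.1 CPM). That call was lost when any 1 of 5 tumors was left out (adjusted p of 0.0998 to 0.138) and in 1 fit over all 24 tumors (1.77, adjusted p = 0.113), while Spry4 was lost without any 1 of 3 (adjusted p of 0.0502 to 0.0585) and Fgfr3 without any 1 of 2 (0.0562 and 0.0626). The log2 differences of Fgf2 (0.13, SE 0.29, adjusted p = 0.755), Fgf7 (0.19, SE 0.32, adjusted p = 0.684) and Fgfrl1 (0.61, SE 0.25, adjusted p = 0.101) did not pass the test. Fgfr2, Fgfr4 and Fgfbp1 had too few counts in these tumors to be tested. Without replicate 2 of BURP-16SR, the Fgfr3 difference was -3.05. Of the list of FGF signaling genes, 22 rose and 14 fell of 77 tested.

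BURP-24BaSq and BURP-16SR are the lines that the study treated with cisplatin, and whose differences it examined through the activity of bladder cancer regulators, FGFR3 among them. The tumors sequenced here were untreated. Of 9 members tested, 3 were higher and 5 lower in BURP-24BaSq, where 29.0% of all genes tested were called (13.2% higher and 15.8% lower), and groups did not overlap for 53.5% of all genes. Fgfr3 had 73.3 to 103 CPM in BURP-24BaSq against 0.339 to 1.16 CPM in BURP-16SR, a rise of 7.09 (SE 0.46, adjusted p = 0.000119) on the log2 scale. Fgfr2 was higher by 5.12 (SE 1.06, adjusted p = 0.00958). Without replicate 2 of BURP-16SR, the differences were 7.84 for Fgfr3 and 7.86 for Fgfr2. Fgfbp1 was 2183-fold higher, with a 95% counting interval of 747 to 10590, since BURP-16SR had 3 counts in all. Spry4 was lower by a log2 value of -5.89 (SE 0.36, adjusted p = 9.41e-05), with 3.10 to 4.45 CPM in BURP-24BaSq. The ligands Fgf1 (-4.60, SE 0.54, adjusted p = 0.00103), Fgf2 (-3.45, SE 0.30, adjusted p = 0.000344) and Fgf7 (-4.43, SE 0.41, adjusted p = 0.000437) were lower as well, and so was Fgfrl1 (-1.98, SE 0.29, adjusted p = 0.00254). Fgfr1 differed by -1.32 (SE 0.55, adjusted p = 0.101) and passed the test without replicate 3 of BURP-16SR (-1.67, adjusted p = 0.00358). This comparison shares its BURP-16SR tumors with those above. Of the FGF signaling list, 11 were higher and 19 lower of 76 tested, among them all of Spry2, Spred2, Spred3, Dusp5 and Il17rd on the lower side, while Dusp6 differed by -0.02 (adjusted p = 0.959).

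Within Ba/Sq, the lines differed in Fgfr2, Fgfr3, Fgfrl1, Fgfbp1 and Spry4. An F test among the 6 lines called 5 of 9 members, where 50.5% of all genes tested were called, so the share of members is near the background. The adjusted p was 0.00188 for Fgfr2, 0.00111 for Fgfr3, 0.000584 for Fgfbp1, 0.00622 for Spry4 and 0.025 for Fgfrl1 (edgeR's quasi-likelihood test). The Fgfrl1 call was lost in 4 fits that each left out 1 tumor, 2 of them of BURP-24BaSq and 1 each of BURP-12BaSq and BURP-18BaSq (adjusted p of 0.0503 to 0.0545). No difference passed for Fgfr1 (0.305), Fgf1 (0.361), Fgf2 (0.207) and Fgf7 (0.159), but Fgf2 passed without replicate 1 (0.0234) or replicate 2 (0.0304) of BURP-17BaSq. Of the FGF signaling list, 53 of 79 were called.

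Fgfbp1 in BURP-24BaSq had the lowest adjusted p of any member in the comparisons of single Ba/Sq lines. Its tumors had 151, 183 and 170 CPM, each above all other tumors (groups did not overlap for 4.51% of all genes), of which the highest was a BURP-25BaSq tumor at 96.2 CPM. Against the mean of the other 5 lines, BURP-24BaSq had more Fgfbp1 (2.75, SE 0.37, adjusted p = 0.00025) and more Fgfr3 (1.91, SE 0.35, adjusted p = 0.00238) on the log2 scale, where 7.79% of genes were called. Fgfr3 averaged 91.7 ± 16.1 CPM in that line, and its lowest tumor (73.28 CPM) lay just above the highest of the next line, BURP-12BaSq (73.24 CPM). In the fit that set BURP-24BaSq against the other 15 tumors as 1 group, the Fgfr3 call was lost (1.5, adjusted p = 0.216).

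BURP-12BaSq and BURP-17BaSq lay at opposite ends of Fgfr2. BURP-12BaSq averaged 232 ± 52.8 CPM (1.37, SE 0.31, adjusted p = 0.00693, with 11.1% of genes called) and BURP-17BaSq 28.7 ± 6.16 CPM (-2.25, SE 0.41, adjusted p = 0.00357, with 6.18% of genes called). BURP-12BaSq also had less Fgfbp1 (-1.53, SE 0.49, adjusted p = 0.0364), a call lost without any 1 of its own 3 tumors (adjusted p of 0.0971 to 0.143) and in the fit against 15 tumors as 1 group (-2.11, adjusted p = 0.187). The Fgfr2 call of BURP-12BaSq was lost in the latter fit too (1.10, adjusted p = 0.217), and without its replicate 3 (1.21, adjusted p = 0.0603). Fgfr3 just missed the test in BURP-12BaSq (1.07, SE 0.37, adjusted p = 0.0523) and was called higher under 8 alternatives (adjusted p of 0.0055 to 0.0498), among them without the BURP-25BaSq library in doubt (1.26, adjusted p = 0.00715), without replicate 2 of BURP-17BaSq (1.23, adjusted p = 0.0138) and without replicate 2 of BURP-18BaSq (1.144, adjusted p = 0.0408). Without that BURP-18BaSq tumor, Spry4 was called lower as well (-1.23, adjusted p = 0.0302). In BURP-17BaSq, Fgfr3 missed the test (-1.28, SE 0.45, adjusted p = 0.0773) and was called without its replicate 2 (-2.05, adjusted p = 0.0177), without replicate 2 of BURP-25BaSq (-1.36, adjusted p = 0.0496) or with the library in doubt counted as BURP-21BaSq (-1.11, adjusted p = 0.0397). Fgf2 was called without replicate 2 of BURP-17BaSq (1.48, adjusted p = 0.0221), and Fgf7 without replicate 3 of BURP-18BaSq (2.88, adjusted p = 0.0269). In BURP-12BaSq 0 genes of the FGF signaling list rose and 19 fell of 79 tested, 24.1% beside the 11.1% of all genes. Those that fell included Spry1 (-1.70), Spry2 (-1.26), Dusp6 (-1.77, adjusted p = 0.0104) and Etv4 (-2.06, adjusted p = 0.00261).

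BURP-18BaSq had the least Fgfr3 of the Ba/Sq lines (6.198 ± 2.57 CPM; -2.75, SE 0.51, adjusted p = 0.00103) and the most Spry4 (17.6 ± 9.33 CPM; 1.89, SE 0.35, adjusted p = 0.00101), with 15.5% of genes called. Its tumors varied more than most, and without replicate 2 Fgfr2 (-1.56, adjusted p = 0.00225) and Fgfbp1 (-2.19, adjusted p = 0.0023) were called lower as well. Without replicate 3, Fgfr1 was called lower (-2.57, adjusted p = 0.035). Of the FGF signaling list 16 rose and 2 fell of 79, with Fgf10 (6.77, adjusted p = 1.22e-05, at 14.6 ± 18.6 CPM), another ligand of the epithelial FGFR2 form, Dusp6 (1.75, adjusted p = 0.00141), Etv4 (1.68) and Spry2 (1.33) among those that rose. In BURP-21BaSq and BURP-25BaSq 0 of 9 members were called by edgeR's quasi-likelihood test, where 2.86% and 2.59% of all genes tested were. At an unadjusted p under 0.05, 3 members passed in BURP-21BaSq (Fgfr2, Fgfr3 and Fgfbp1) and 3 in BURP-25BaSq (Fgfr2, Fgfrl1 and Fgfbp1), where 22.4% and 20.3% of all genes did. DESeq2 called 0 members for BURP-21BaSq and 1 for BURP-25BaSq, Fgfbp1 (1.39, adjusted p = 0.0253). Without the BURP-25BaSq library in doubt, Fgfr3 was called higher in BURP-21BaSq (1.10, adjusted p = 0.0274). Fgfrl1 (1.05, adjusted p = 0.00924) and Fgfbp1 (1.66, adjusted p = 0.0257) were then called higher in BURP-25BaSq. The doubt about that library arose from Fgfr3 and Fgfrl1 among others, so their calls follow in part from which tumor was left out. Without replicate 2 of BURP-18BaSq, Fgfr2 was called higher in BURP-21BaSq (1.06, adjusted p = 0.0141) and in BURP-25BaSq (1.14, adjusted p = 0.00873).

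Across all 8 lines, the order of mean levels placed BURP-16SR first for Fgfr1, Fgfrl1, Fgf1, Fgf2, Fgf7 and Spry4. Neighbours in that order mostly overlapped in their tumors. For Fgfr2, breaks (neighbours that did not overlap) stood between BURP-21BaSq and BURP-24BaSq and between BURP-17BaSq and BURP-16SR. For Fgfbp1 they stood below BURP-24BaSq, below BURP-25BaSq and between BURP-12BaSq and BURP-16SR. For Spry4 they stood below BURP-16SR and below BURP-19NE, and for Fgfr1 no pair of neighbours was apart. For Fgfr3 they stood below BURP-24BaSq, below BURP-18BaSq and below BURP-19NE, and for Fgf1 below BURP-16SR and below BURP-21BaSq. Fgf2 and Fgf7 each had 1 break, between BURP-19NE and BURP-17BaSq, and Fgfrl1 had 1, between BURP-21BaSq and BURP-12BaSq.

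The genes whose log2 CPM ran most alike over the 18 Ba/Sq tumors were taken from 14142 protein-coding genes by Spearman's rho, as a description over tumors that share lines and host tissue. For Fgfr1 they were Pxdn (0.862), Fat4 (0.858) and Glt8d1 (0.856). For Fgfr2 they were Nkiras1 (0.893), Ndufb2 (0.893) and Plin3 (0.889). For Fgfr3 they were 2610528A11Rik (0.95), Cenpp (0.946) and Il1f9 (0.92), and for Fgfbp1 Fam160a1 (0.957), Gm20219 (0.934) and Shroom3 (0.92).

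The study also compared the sexes among Ba/Sq lines, here with 9 male and 9 female tumors from 3 lines each. Fgfbp1 averaged 19.7 ± 12.5 CPM in male and 87.3 ± 67.6 CPM in female tumors, with overlapping ranges. The difference of -2.14 (male minus female, log2; SE 0.53, adjusted p = 0.0238) was the only call among 8 members tested, where 2.31% of all genes tested were called. Differences that did not pass were 0.16 for Fgfr1, -0.36 for Fgfr2, -1.18 for Fgfr3, 0.20 for Fgfrl1, -0.22 for Fgf1, 0.47 for Fgf2 and 0.98 for Spry4, while Fgf7 and Fgfr4 were not tested. The Fgfbp1 call was lost when the 3 tumors of each line were summed to 1 sample (-2.17, adjusted p = 0.739), when line was a random effect (-1.71, adjusted p = 0.515), and without BURP-24BaSq (-1.28, adjusted p = 0.182), BURP-12BaSq (-1.95, adjusted p = 0.0689) or BURP-18BaSq (-2.24, adjusted p = 0.0533). Without BURP-12BaSq, Fgfr2 (-1.44, adjusted p = 0.0469), Fgfr3 (-2.49, adjusted p = 0.00841) and Spry4 (1.41, adjusted p = 0.0251) were called. Of the FGF signaling list, 0 rose and 1 fell (Flrt1) of 74 tested.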

How the data were processed

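RNA of 24 tumors was sequenced by the authors from 500 ng of total RNA with ribosomal depletion. Per the labels, the authors used CASAVA 1.8.2, STAR 2.6.0a and RSEM 1.3.1 on GRCm38 and deposited estimated (expected) counts per gene, 1 table of 53465 genes, of which 99.8% carry a symbol. In it 12.5% of values are not whole, so the deposited expected counts were rounded. Reads that fit several genes are shared out by RSEM, and the counting strand is not given in the sources used here.

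Groups were taken from the sample titles and the study's line names. Comparisons used edgeR 4.0.16 (limma 3.58.1, R 4.3.3) with TMM scaling, its default filter on low counts and the quasi-likelihood test, adjusted by Benjamini-Hochberg over all genes tested. Calls needed both an adjusted p below 0.05 and more than a 2-fold difference. The F test among lines used the adjusted p alone. Levels are CPM scaled over the 24 tumors, or CPM per kilobase of the longest transcript where genes are compared, and the floor is 3 counts. Counting intervals cover counting error only. Alternatives were DESeq2 1.42.0 and its size factors, other filters, leaving out tumors or lines, regrouping of 1 library, 1 fit over all tumors and counts summed per line; the fit code was tested on simulated data.

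The members, the list of 93 FGF signaling genes and the marker lists were chosen with earlier results of these data known. All members are named in the comparisons of subtypes, of all Ba/Sq lines and of the sexes; for single Ba/Sq lines, mainly those called with all tumors or under an alternative. Of the FGF signaling list the text names some of the genes with the largest called changes, and Dusp6, Etv4, Etv5, Spry1 and Spry2 in the comparisons with Ba/Sq. Promoter windows came from RefSeq (GRCm38.p6), which held no entry for Fgfr1.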

Additional observations from a re-analysis of the deposited data

Results flagged for a closer look

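In replicate 1 of BURP-17BaSq, 3 members stood apart from the other 8 male Ba/Sq tumors, with a gap to the nearest tumor that exceeded Dixon's limit. Fgfr1 was 128 CPM there, against 5.22 to 63.4 CPM in the others. Fgf2 was 24.1 CPM, against 2.27 to 7.21 CPM. Fgf7 was 10.2 CPM, against 0.0740 to 3.96 CPM. The tumor also had the highest summed fibroblast markers (9846 CPM) and endothelial markers (307 CPM) of the Ba/Sq tumors. The part of these cells in its levels was not tested. Of 18 looks, each at 1 member (Fgfr4 left out) in the male or the female Ba/Sq tumors, 3 met this limit, and chance alone gives about 5%. All 3 fall on this tumor, so they are not independent and cannot be weighed against that rate.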

How the results depend on the processing

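No paired analysis was possible because the replicate numbers were given in accession order and only name tumors, and no label ties a tumor of one line to a tumor of another. Counts of called members are given here. Requiring 10 or more counts of a gene in each tumor compared, which drops genes near 0 in 1 group, gave 1 (in place of 6) for BURP-19NE and 1 (of 8) for BURP-16SR against Ba/Sq, 4 (of 8) for BURP-24BaSq against BURP-16SR, 2 (in place of 1) for BURP-17BaSq and 1 (of 2) for BURP-18BaSq. DESeq2 gave 5 (in place of 2) for BURP-12BaSq, 2 (1) for BURP-17BaSq and 1 (0) for BURP-25BaSq. Setting 1 line against 15 tumors as 1 group gave 0 for BURP-12BaSq and 1 for BURP-24BaSq. Counting BURP-25BaSq replicate 3 as BURP-21BaSq gave 2 for BURP-17BaSq, 1 for BURP-21BaSq and 2 for BURP-25BaSq. Leaving out replicates 2 and 3 of BURP-25BaSq, chosen after seeing the data, gave 1 for each of BURP-21BaSq and BURP-25BaSq. For the sexes, summing per line and a random line effect both gave 0. The cause was not tested.

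Leaving out 1 tumor (for the sexes, 1 line) gave counts of 6 to 6 for BURP-19NE and 7 to 9 for BURP-16SR against Ba/Sq, 1 to 4 for BURP-16SR against BURP-19NE, 8 to 9 for BURP-24BaSq against BURP-16SR, 4 to 6 among lines, 0 to 4 for BURP-12BaSq, 1 to 3 for BURP-17BaSq, 2 to 4 for BURP-18BaSq, 0 to 1 for BURP-21BaSq, 2 to 2 for BURP-24BaSq, 0 to 2 for BURP-25BaSq and 0 to 3 for the sexes. Leaving out 1 tumor or line turned the sign of log2 differences only for members that were not called with all tumors kept: for BURP-16SR against BURP-19NE, Fgf2 ran from -0.25 to 0.31 (-0.03 in another fit) and Fgf7 from -0.26 to 0.40, and between the sexes Fgfr1 ran from -0.46 to 0.49 (-0.13 in another), Fgfr2 from -1.44 to 0.093, Fgfrl1 from -0.16 to 0.60 (-0.05 in another) and Fgf1 from -0.63 to 0.37.

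Without division by length, the Fgfr1 share in BURP-21BaSq was 18.1%. With all exons as length (chosen after seeing the data), shares there were 17.4% for Fgfr1, 57.5% for Fgfr2 and 25.1% for Fgfr3, and in BURP-24BaSq 33.0% for Fgfr2 and 51.5% for Fgfr3. DESeq2 size factors in place of TMM changed no call. Depth limits Fgfr4 throughout, and Fgfr2 and Fgfbp1 in BURP-16SR and BURP-19NE, where 3 counts are 0.126 to 0.254 CPM by library (0.106 to 1.34 CPM over all tumors).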
